A study of Mus musculus with 16 samples.

Results

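The transcription factor gene Myc, its dimer partner Max, the antagonist genes Mxd3, Mxd4 and Mxi1, the polyamine enzyme genes Odc1 and Srm and the nucleolar protein genes Ncl and Nolc1 were followed in naive mouse T cells before and after stimulation. These 9 genes were taken by name and not by a cut on their values, with earlier results of these data known. They were read through probe sets, the groups of short oligonucleotides by which an array reads a transcript. Every probe set was used that the platform's gene table assigned to 1 of these symbols alone. The 9 genes had 22 of 20380 such probe sets. For each gene 1 probe set, that with the highest mean over all arrays, entered a fit across 12393 genes. The cells were CD25- CD62Lhi CD44lo CD4+ and CD8+ T cells sorted from spleen and lymph nodes of mice with floxed Gabpa alleles (Gabpa f/f, WT) or with these alleles and CD4Cre (CD4Cre Gabpa f/f, KO). Each sort was split between lysis at once (0 h) and 18 h of culture with IL-2 and antibodies against CD3 and CD28, which stand in for antigen and costimulation. The mice were of C57BL/6 background, and their age is not given in the sources used here. WT and KO of both lineages at both times gave 8 groups of 2 biological replicates, 16 arrays in all. All groups shared the floxed alleles, so that they differed by the Cre transgene, which is active from the double-positive thymocyte stage in both lineages, and no group carried Cre without floxed alleles. Gabpa encodes the DNA-binding subunit of GABP, an Ets family factor, and the comparisons ask how the growth genes responded to stimulation and whether GABP loss altered that.

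Myc binds E-box DNA as a dimer with Max and activates genes for ribosome assembly, nucleotide and polyamine synthesis and translation. Mxd3, Mxd4 and Mxi1 proteins compete for Max and repress through the same sites, and Mxd4 and Mxi1 are typical of resting or differentiating cells and Mxd3 of dividing ones, while Myc is induced when the antigen receptor is engaged. Odc1 makes putrescine, the entry step of polyamine synthesis, and Srm turns it into spermidine. Ncl (nucleolin) and Nolc1 (Nopp140) act in the nucleolus in the making and processing of ribosomal RNA and small nucleolar ribonucleoproteins.

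The labelled lineages were checked by their markers. Cd8a had log2 levels of 10.89 to 12.01 in CD8 arrays and 4.42 to 7.56 in CD4 arrays. The mean of 4 of 4 CD8 lineage markers was 8.76 to 9.78 in CD8 arrays and 5.07 to 7.13 in CD4 arrays. For 3 of 3 CD4 lineage markers it was 5.59 to 6.24 in CD4 arrays and 4.60 to 5.15 in CD8 arrays. Of these, Runx3 (group means 5.18 to 5.56) and Cd40lg (4.27 to 4.83) differed little between lineages. The mean log2 level of 6 of 7 listed B cell markers lay between 3.74 and 4.85, and Cd79b alone reached 7.57. For 8 of 8 myeloid and dendritic markers that mean was 3.94 to 5.06, and for 5 of 8 T cell markers 9.96 to 11.56. Among the myeloid and dendritic markers Cst3 had group means of 8.08 to 8.47 in WT and 5.32 to 6.41 in KO. For 5 of 6 NK cell markers the mean was 3.55 to 6.58, and Klrd1, Gzma and Prf1 reached 11.77, 8.17 and 7.41. Cd8a was highest among CD4 arrays in CD4 WT replicate 1, with 7.56 at 0 h and 6.85 at 18 h. The mean of 3 of 4 listed markers of stimulated T cells was 5.04 to 6.28 at 0 h and 7.97 to 9.92 at 18 h. Gabpa itself ranged from 8.74 to 9.34 in WT arrays and from 9.09 to 9.79 in KO arrays, and where its probes lie relative to the removed exons was not given in the sources used here, so it does not check the deletion. One array stood apart in RNA quality. In CD8 KO 18 h replicate 2 the 3' control probes of actin and Gapdh exceeded the 5' ones by a mean of 3.76 log2 units, against 0.46 to 1.58 in the other 15 arrays, and results resting on it are given with and without it.

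RefSeq promoter windows of build GRCm38.p6, from 250 bases before to 50 after a transcript start, were at hand for 7 of the 9 genes. They were read for the E-box letters CACGTG, which Myc and Max bind, and for CCGGAA, the core that GABP binds, on both strands. CACGTG stood in the windows of Max and Mxd4, and in 7.15% of all 32851 windows. CCGGAA stood in those of Odc1 and Nolc1, and in 14.9% of all windows. The stretches around these letters are shown because Mxd4, Odc1 and Nolc1 are genes on which the results turn, with the matched letters in capitals, 5′ to 3′ on the gene's strand. Those of Max, chr12:76962229-76962311 (minus strand), Mxd4, chr5:34187864-34187960 (minus strand), Odc1, chr12:17544822-17544892 (plus strand), and Nolc1, chr19:46075773-46075866 (plus strand), read:
Max: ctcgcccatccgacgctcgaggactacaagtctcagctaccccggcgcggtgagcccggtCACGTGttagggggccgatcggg
Mxd4: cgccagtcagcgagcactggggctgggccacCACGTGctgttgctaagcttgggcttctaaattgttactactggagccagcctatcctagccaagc
Odc1: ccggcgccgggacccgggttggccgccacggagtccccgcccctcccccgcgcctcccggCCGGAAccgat
Nolc1: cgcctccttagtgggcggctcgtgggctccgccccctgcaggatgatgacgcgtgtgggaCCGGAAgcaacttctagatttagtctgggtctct
The E-box of Max began 3 bases before the start and that of Mxd4 219 bases before it. The GABP core began at position 10 after the start in Odc1 and 14 bases before it in Nolc1. The windows of Ncl, Mxd3 and Mxi1 held neither run of letters. A match describes the sequence and does not show that a factor was bound there.

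To ask how the genes responded to stimulation, 18 h was compared with 0 h in each lineage and genotype. Myc, Odc1 and Srm rose in both lineages and both genotypes, and Nolc1 rose and Mxd4 fell in CD4 WT, CD4 KO and CD8 WT. In CD8 KO neither was called with both 18 h arrays, of which replicate 2 stood apart in RNA quality. Without that array the difference was 0.86 for Nolc1, against 0.37 with both, and -0.12 for Mxd4, against -0.13. The difference in response between genotypes was not called for either gene. A gene was called where limma's Benjamini-Hochberg adjusted p over all genes was under 0.05 and the fold over 1.5. By this rule 6 of 9 genes were called in CD4 WT (26.2% of all genes tested), 7 in CD4 KO (24.2%), 6 in CD8 WT (15.2%) and 4 in CD8 KO (7.54%). Those called higher numbered 5, 5, 5 and 4, against 12.2%, 11.1%, 8.2% and 3.67% of all genes, and those called lower 1, 2, 1 and 0, against 14%, 13.2%, 7% and 3.87%. All levels are log2 values of 1 probe set, and each difference of log2 levels carries limma's SE (n = 2 arrays a group). The labels call the replicates biological but do not tie them to animals, so p-values reflect the spread among these arrays alone. In such bulk samples fewer cells of a type and less RNA per cell cannot be told apart.

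**Figure D1:**
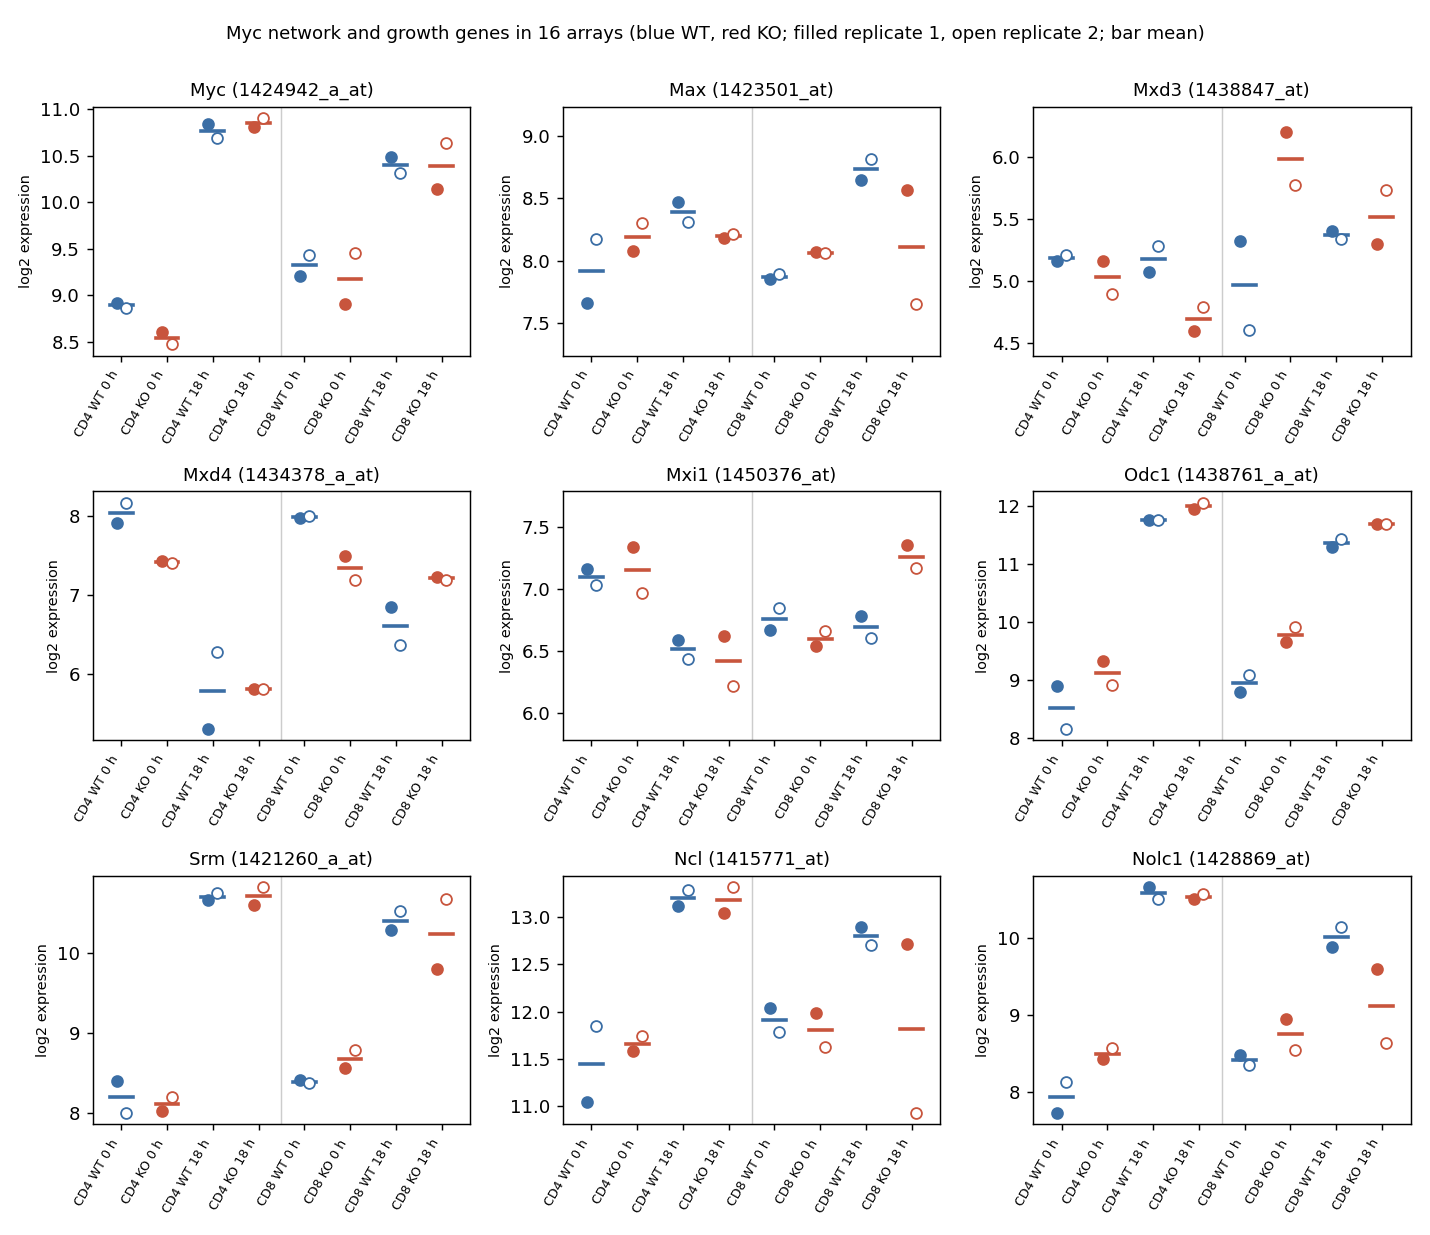
Log2 expression (y axis, 1 scale for each gene) of the 9 genes in the 8 groups (x axis), with a point for each array, replicate 1 filled and replicate 2 open, and a bar for the mean of both. Myc, Odc1 and Srm lie higher in every 18 h array than in every 0 h array, and Ncl, Nolc1 and Max lie lower in replicate 2 of CD8 KO 18 h than in replicate 1.

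Myc was at 8.92 and 8.86 in CD4 WT and at 8.60 and 8.47 in CD4 KO at 0 h, and at 10.84 and 10.69 and at 10.81 and 10.90 at 18 h. In CD8 cells it was at 9.21 and 9.43 in WT and at 8.90 and 9.45 in KO at 0 h, and at 10.48 and 10.31 and at 10.14 and 10.63 at 18 h. Thus no 18 h array overlapped a 0 h array, while WT and KO overlapped in CD8 cells at both times and in CD4 cells at 18 h. Between times 59.3% (CD4 WT), 61.4% (CD4 KO), 59.9% (CD8 WT) and 39% (CD8 KO) of all genes did not overlap. The share with no overlap over the arrays of all settings was not counted, here or for Odc1 and Srm below. In CD4 cells at 0 h 41.5% of all genes did not overlap between genotypes. Myc rose by 1.87 ± 0.20 in CD4 WT (3.67-fold, adjusted p = 2.61e-05), 2.32 ± 0.20 in CD4 KO (4.98-fold, adjusted p = 5.16e-06), 1.07 ± 0.20 in CD8 WT (2.10-fold, adjusted p = 0.00345) and 1.21 ± 0.20 in CD8 KO (2.31-fold, adjusted p = 0.00321). These 4 calls were made in each of 16 fits that left out 1 array, and limma's treat test, which asks for more than a fold of 1.5, did not call Myc in CD8 WT (adjusted p = 0.285) or CD8 KO (adjusted p = 0.208). Its 18 h means were ordered CD4 KO, CD4 WT, CD8 WT and CD8 KO, at 10.86, 10.77, 10.39 and 10.38, and the arrays of neighbours in that order overlapped except for CD4 WT and CD8 WT, which differed by an uncalled -0.37 ± 0.20 (CD8 minus CD4, 95% interval -0.82 to 0.07). Between CD4 WT and CD8 WT at 18 h 42.4% of all genes did not overlap. The rise of Myc in CD8 KO was 0.96 without CD8 KO 18 h replicate 2 and 1.45 without replicate 1.

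Max, whose protein is the shared partner, moved little. It was at 7.66 and 8.17 in CD4 WT, 8.08 and 8.30 in CD4 KO, 7.85 and 7.89 in CD8 WT and 8.07 and 8.06 in CD8 KO at 0 h. At 18 h it was at 8.47 and 8.31, 8.18 and 8.21, 8.65 and 8.82, and 8.57 and 7.65 in the same order. Only in CD8 WT was a difference called, at 0.87 ± 0.25 (adjusted p = 0.0332), and leaving out any of the 4 CD8 WT arrays ended that call (0.78 to 0.95). The differences in CD4 WT, CD4 KO and CD8 KO were 0.47, 0.00 and 0.05, with 95% intervals of -0.08 to 1.01, -0.54 to 0.55 and -0.50 to 0.59. That in CD8 KO was 0.51 without CD8 KO 18 h replicate 2 and -0.41 without replicate 1.

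Among the antagonists, Mxd4 was called lower in 3 settings and Mxi1 in 1. Mxd4 was at 7.91 and 8.17 in CD4 WT, 7.43 and 7.41 in CD4 KO, 7.98 and 8.0 in CD8 WT and 7.49 and 7.19 in CD8 KO at 0 h. After 18 h it was at 5.30 and 6.27, 5.80 and 5.81, 6.85 and 6.36, and 7.23 and 7.19. The 0 h and 18 h arrays were apart in 3 of the 4 settings and intermixed in CD8 KO, where the shares of all genes whose arrays did not overlap were 59.3%, 61.4%, 59.9% and 39% in the order given. Mxd4 fell by 2.26 ± 0.26 in CD4 WT (4.78-fold, adjusted p = 4.18e-05), by 1.62 ± 0.26 in CD4 KO (3.07-fold, adjusted p = 0.000499) and by 1.38 ± 0.26 in CD8 WT (2.61-fold, adjusted p = 0.00326). In CD8 KO the difference was -0.13 ± 0.26 (95% interval -0.70 to 0.43, adjusted p = 0.852). It was -0.12 without CD8 KO 18 h replicate 2 and -0.15 without replicate 1. The CD8 WT call was lost without CD8 WT 18 h replicate 2 (-1.14, adjusted p = 0.0574). Of the other 3 probe sets of Mxd4, all with lower values, 2 were called lower in CD4 WT (-0.76 and -1.22), 1 in CD8 WT (-0.90) and 0 in either KO setting.

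Mxi1 moved in opposite directions in the KO cells of the lineages. It was at 7.34 and 6.97 in CD4 KO at 0 h and at 6.62 and 6.22 at 18 h, a fall of 0.74 ± 0.18 (1.67-fold, adjusted p = 0.00769). In CD8 KO it was at 6.54 and 6.66 at 0 h and at 7.35 and 7.17 at 18 h, and it rose by 0.67 ± 0.18 (1.59-fold, adjusted p = 0.0392). The fall was not called without CD4 KO 0 h replicate 1 (-0.56) or CD4 KO 18 h replicate 2 (-0.54). The rise was called in 8 of 16 such fits and was lost without any of the 4 CD8 KO arrays (0.58 to 0.76), without either CD4 WT 18 h array or without either CD8 WT 0 h array (0.67 each time). In CD4 WT the values went from 7.16 and 7.03 to 6.59 and 6.44, a difference of -0.58 ± 0.18 (adjusted p = 0.0264) that stayed just under the fold limit and passed it where each array was centred on its median (-0.64). In CD8 WT it went from 6.67 and 6.85 to 6.78 and 6.61, a difference of -0.06 (95% interval -0.45 to 0.32). The other probe set of Mxi1, 1425732_a_at, went from a mean of 4.74 to 4.64 in CD4 KO and from 4.06 to 4.40 in CD8 KO. With each probe set tested on its own, 1 of 2 was called lower in CD4 KO and 0 were called in CD8 KO.

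Mxd3 was near the middle of all probe set values, between 4.60 and 6.20, and no stimulation difference was called. The differences were -0.01 in CD4 WT, -0.34 in CD4 KO, 0.41 in CD8 WT and -0.47 in CD8 KO, with SE 0.24. That in CD8 KO was -0.68 without CD8 KO 18 h replicate 2 and -0.25 without replicate 1.

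Of the 9 genes Odc1 had the largest rise in all 4 settings. It was at 8.89 and 8.16 in CD4 WT, 9.33 and 8.91 in CD4 KO, 8.80 and 9.08 in CD8 WT and 9.65 and 9.91 in CD8 KO at 0 h. It was at 11.76 and 11.75, 11.94 and 12.05, 11.28 and 11.43, and 11.68 and 11.69 at 18 h, so that the lowest stimulated array lay above the highest resting one. Odc1 rose by 3.23 ± 0.22 in CD4 WT (9.37-fold, adjusted p = 1.34e-06), 2.88 ± 0.22 in CD4 KO (7.34-fold, adjusted p = 2.02e-06), 2.41 ± 0.22 in CD8 WT (5.33-fold, adjusted p = 3.54e-05) and 1.90 ± 0.22 in CD8 KO (3.74-fold, adjusted p = 0.000282). All 3 of its probe sets were called higher in all 4 settings.

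Srm was at 8.40 and 8.0 in CD4 WT, 8.03 and 8.20 in CD4 KO, 8.41 and 8.38 in CD8 WT and 8.56 and 8.79 in CD8 KO at 0 h. At 18 h it was at 10.67 and 10.75, 10.61 and 10.83, 10.29 and 10.53, and 9.80 and 10.68, again with no overlap between times. It rose by 2.52 ± 0.25 in CD4 WT (adjusted p = 1.24e-05), 2.60 ± 0.25 in CD4 KO (adjusted p = 8.38e-06), 2.02 ± 0.25 in CD8 WT (adjusted p = 0.000205) and 1.57 ± 0.25 in CD8 KO (2.96-fold, adjusted p = 0.00204). The rise in CD8 KO was 1.13 without CD8 KO 18 h replicate 2 and 2.01 without replicate 1. The calls of Odc1 and Srm were made whichever array was left out, and treat ended that of Srm in CD8 KO (adjusted p = 0.0562).

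**Figure D2:**
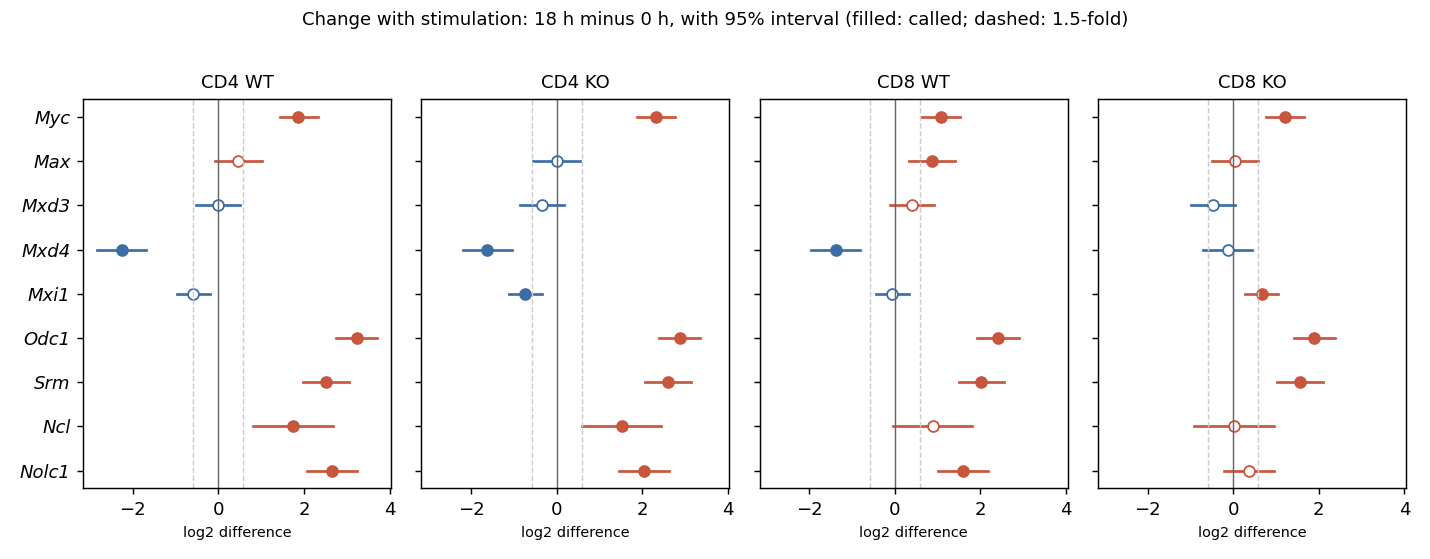
Log2 difference of 18 h minus 0 h (x axis) for the 9 genes in CD4 WT, CD4 KO, CD8 WT and CD8 KO cells, with points for the estimate from limma, bars for its 95% interval, filled points for called genes and dashed lines at 1.5-fold. Odc1, Srm and Myc are called higher in all 4 panels, and Mxd4 is called lower in the first 3 and lies at -0.13 in CD8 KO.

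Nolc1 was at 7.72 and 8.13 in CD4 WT, 8.42 and 8.57 in CD4 KO, 8.48 and 8.35 in CD8 WT and 8.95 and 8.54 in CD8 KO at 0 h. At 18 h it was at 10.66 and 10.50, 10.50 and 10.57, 9.88 and 10.14, and 9.60 and 8.63. The last array, CD8 KO replicate 2, is the one with the high 3' to 5' difference, and it alone among stimulated arrays fell within the resting range. Nolc1 rose by 2.65 ± 0.27 in CD4 WT (6.29-fold, adjusted p = 1.58e-05), 2.04 ± 0.27 in CD4 KO (4.10-fold, adjusted p = 0.000106) and 1.6 ± 0.27 in CD8 WT (3.02-fold, adjusted p = 0.00159). In CD8 KO the difference was 0.37 ± 0.27 (adjusted p = 0.501) with both arrays, and 0.86 and called (adjusted p = 0.049) without replicate 2, the remaining array then being taken to vary like the other groups.

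Ncl was at 11.05 and 11.85 in CD4 WT, 11.58 and 11.74 in CD4 KO, 12.04 and 11.78 in CD8 WT and 11.98 and 11.63 in CD8 KO at 0 h. After 18 h it was at 13.11 and 13.28, 13.04 and 13.31, 12.89 and 12.70, and 12.71 and 10.93, the last again from CD8 KO replicate 2. It rose by 1.74 ± 0.43 in CD4 WT (3.35-fold, adjusted p = 0.00773) and 1.52 ± 0.43 in CD4 KO (2.87-fold, adjusted p = 0.0185). The first call was lost without CD4 WT 0 h replicate 1 (1.35) and the second without any of the 4 CD4 KO arrays (1.38 to 1.65). In CD8 WT the difference was 0.88 ± 0.43 (adjusted p = 0.213), which was called without either CD8 KO 18 h array (adjusted p = 0.0194), and in CD8 KO it was 0.02 ± 0.43, or 0.91 without replicate 2 (adjusted p = 0.108).

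Probe sets of 1 gene disagreed in that array. Ncl probe set 1415773_at was at 3.78 in CD8 KO 18 h replicate 2 and at 11.04 in replicate 1, while 1415772_at was at 9.65 and 9.13 and 1456528_x_at at 8.99 and 9.21. These last 2 probe sets were called higher with stimulation in all 4 settings, by 1.45 and 0.88 in CD8 WT and by 1.41 and 0.84 in CD8 KO. The array with the next highest 3' to 5' difference, CD4 WT 0 h replicate 1, had 1415773_at at 7.17, against 9.82 in its replicate. All probe sets of Nolc1 were lower in CD8 KO 18 h replicate 2 than in replicate 1, at 8.63 against 9.60, 5.58 against 7.24 and 4.34 against 7.82. The part of RNA quality in these values was not tested.

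**Figure D3:**
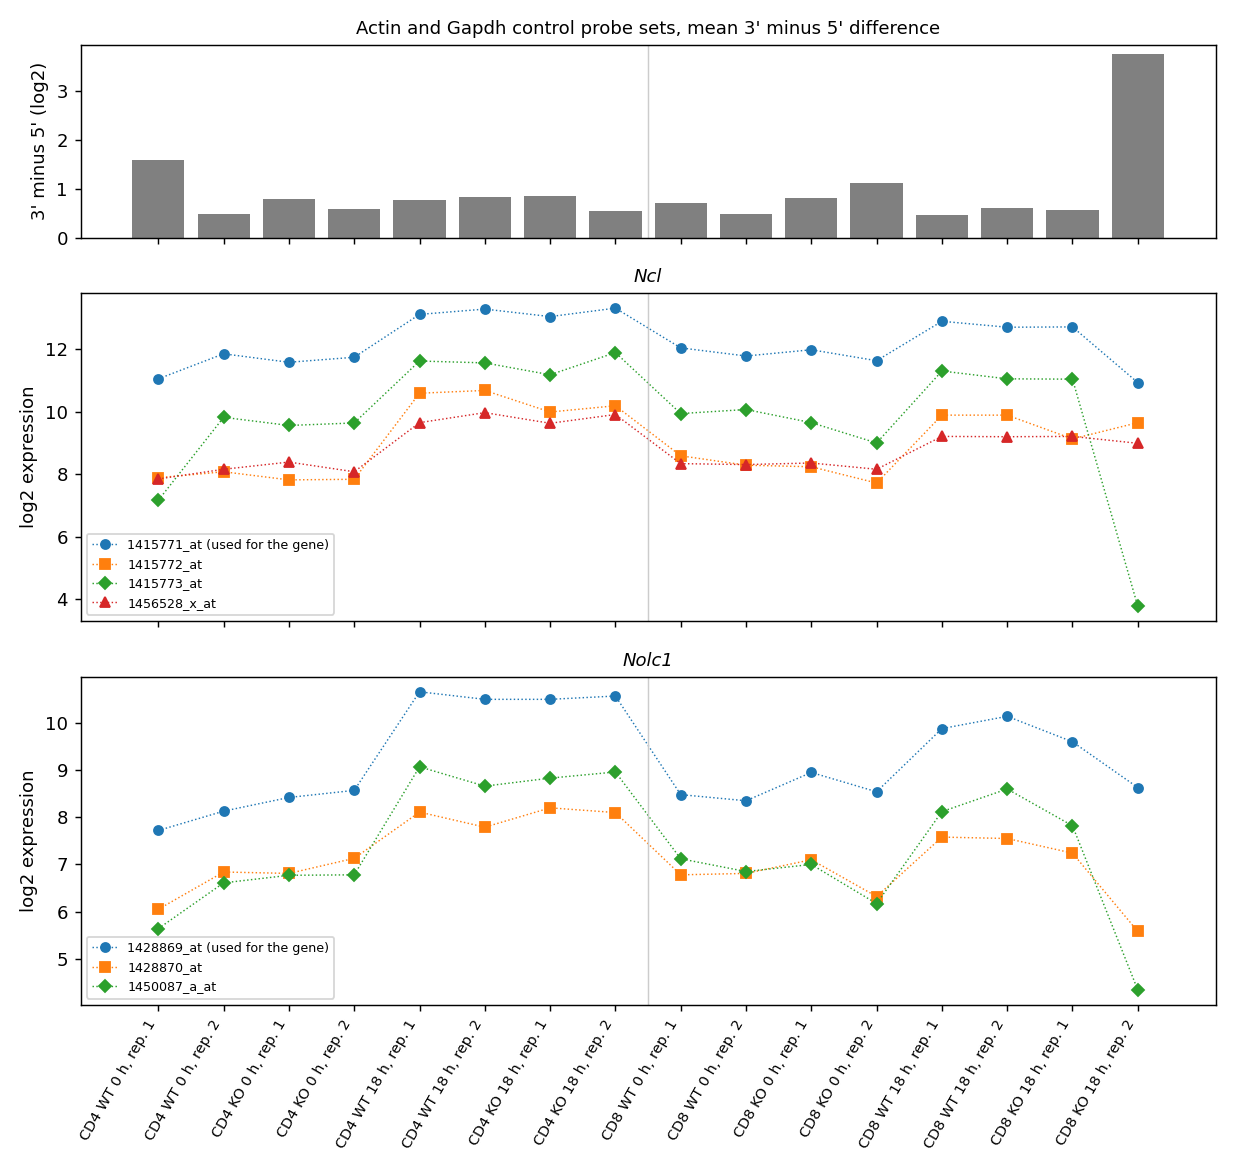
Upper panel, the mean log2 difference between 3' and 5' control probe sets of actin and Gapdh in each of the 16 arrays (bars, from 0). Lower panels, log2 expression of every probe set of Ncl and Nolc1 in the same arrays (x axis), with dotted lines joining the points of 1 probe set. In CD8 KO 18 h replicate 2, where the bar reaches 3.76, Ncl 1415773_at drops to 3.78 and all 3 Nolc1 probe sets drop, while Ncl 1415772_at and 1456528_x_at stay at 9.65 and 8.99.

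Genotypes were then compared at each time. None of the 9 genes was called between KO and WT in any lineage at any time by limma, against 1.27% of all genes in resting CD4, 1.63% in resting CD8, 6.86% in stimulated CD4 and 2.75% in stimulated CD8 cells. At an unadjusted p under 0.05 resting CD4 cells had 2 such genes and resting CD8 cells 3, and stimulated ones 0 and 5, and limma's treat test against a fold of 1.5 called 0 in each. The share of all genes at an unadjusted p under 0.05 was not counted, here or in the comparisons below. Counts at that limit are therefore no result about the 9 genes. For Myc the KO minus WT differences were -0.35 (CD4) and -0.15 (CD8) in resting cells and 0.09 and -0.01 in stimulated cells, with SE 0.20. Its 95% intervals were -0.79 to 0.09 and -0.59 to 0.30 at 0 h, and -0.35 to 0.53 and -0.45 to 0.43 at 18 h, so that at 18 h a difference of more than 0.53 log2 units in either direction lay outside them. In CD8 cells at 18 h the value was -0.26 without CD8 KO replicate 2 and 0.24 without replicate 1, and at 0 h it was 0.13 without CD8 KO replicate 1 and -0.43 without replicate 2.

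In resting cells, Odc1, Mxd4, Nolc1, Max (0.27 in CD4 and 0.19 in CD8 cells) and Myc had differences of like sign in both lineages. Of these, Odc1 and Mxd4 had an unadjusted p under 0.05 by limma in each. For Odc1 the KO means were 9.12 and 9.78 against WT means of 8.52 and 8.94 in CD4 and CD8 cells, differences of 0.59 ± 0.22 (adjusted p = 0.325) and 0.84 ± 0.22 (adjusted p = 0.0995). The KO arrays lay above both WT arrays in each lineage, as they did for Nolc1 (0.57 and 0.33), where 41.5% of all genes in CD4 and 44.7% in CD8 cells did not overlap between genotypes. Of the 9 genes, 2 lay higher and 2 lower in KO without overlap in CD4 cells, and 5 and 2 in CD8 cells. The Odc1 difference in CD4 cells was 0.96 without CD4 WT 0 h replicate 1, 0.23 without replicate 2 and 0.39 without CD4 KO 0 h replicate 1 or with the mean of all probe sets. Its probe set 1427364_a_at had means of 6.16 in CD4 WT and 6.18 in CD4 KO at 0 h. For Mxd4 the differences were -0.62 ± 0.26 (95% interval -1.19 to -0.05) and -0.64 ± 0.26 (-1.21 to -0.08), and the KO arrays lay below the WT arrays in each lineage, against the same background. With the mean of all probe sets the Mxd4 difference in CD4 cells was -0.37. Mxd3 was at 6.20 and 5.77 in CD8 KO and at 5.32 and 4.61 in CD8 WT at 0 h, a difference of 1.02 ± 0.24 (adjusted p = 0.0542), and in CD4 cells it differed by -0.15 ± 0.24. Its other 2 probe sets differed by 0.64 and 0.75 in CD8 cells. With the replicate number within each lineage as a block, a pairing taken from correlations between arrays, since the split sorts tie the times of 1 genotype and not WT to KO, Mxd3 (adjusted p = 0.0358) and Odc1 (adjusted p = 0.0346) were called in CD8 cells at 0 h. The Mxd3 difference was 0.67 (adjusted p = 0.438) without CD8 WT 0 h replicate 2 and 1.38 and called without replicate 1. It was also called without either CD8 KO 18 h array (1.02), as was Odc1 without either CD4 WT 0 h array (0.84).

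In CD8 cells at 18 h, KO and WT differed for Nolc1 by -0.90 ± 0.27 (adjusted p = 0.101), Ncl by -0.97 ± 0.43 (adjusted p = 0.278) and Max by -0.62 ± 0.25 (adjusted p = 0.226). These 3 values rested on CD8 KO replicate 2. Without it they were -0.41, -0.08 and -0.16, and without replicate 1 they were -1.39, -1.86 and -1.09, with all 3 genes then called. With the replicate block Nolc1 was called (adjusted p = 0.0487). Mxi1 and Mxd4 differed the other way, by 0.57 ± 0.18 (adjusted p = 0.112) and 0.60 ± 0.26 (adjusted p = 0.266), and were 0.66 and 0.62 without replicate 2. Mxi1 was 0.20 with the mean of all probe sets, and Mxd4 was 0.36 without CD8 WT 18 h replicate 2 and 0.40 with the mean of all probe sets. In CD4 cells at 18 h the 9 differences ran from -0.48 (Mxd3) to 0.24 (Odc1).

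**Figure D4:**
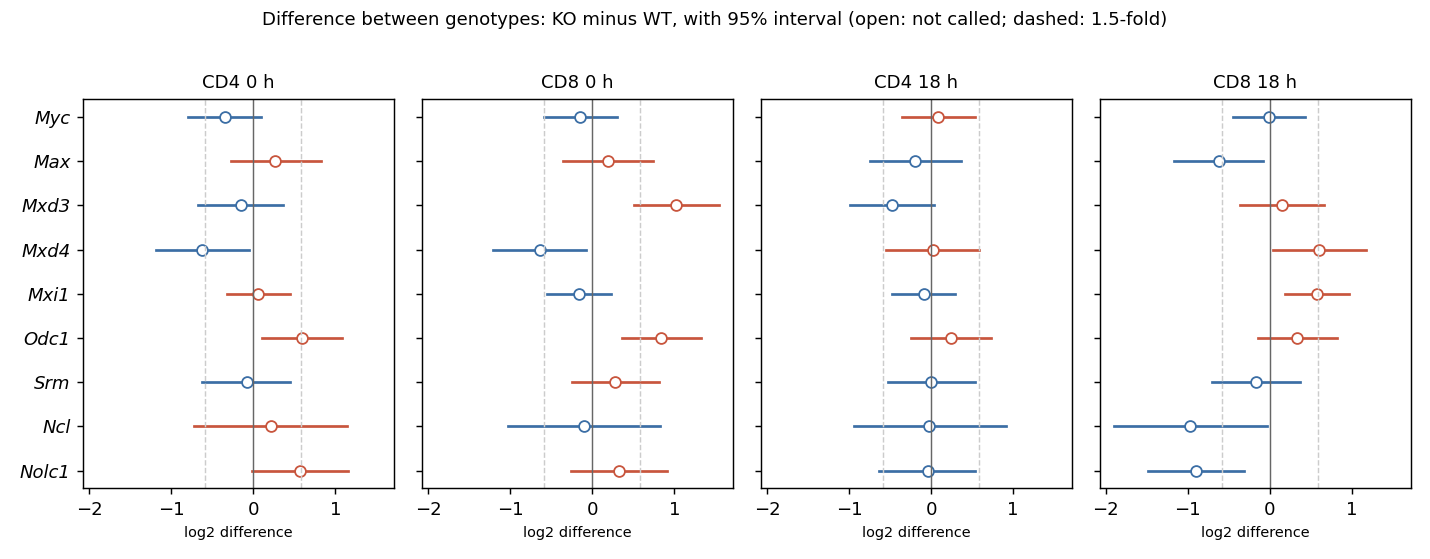
Log2 difference of KO minus WT (x axis) for the 9 genes in each lineage at 0 h and 18 h, with points for limma's estimate, bars for its 95% interval and dashed lines at 1.5-fold. No point is filled, since no gene was called, and the farthest from 0 are Mxd3 in CD8 cells at 0 h (1.02) and Ncl in CD8 cells at 18 h (-0.97).

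The change with stimulation was compared between genotypes in 1 model. None of the 9 genes was called in CD4 or CD8 cells (1.41% and 0.266% of all genes), with 0 and 5 at an unadjusted p under 0.05 and 0 and 0 by treat. For Myc the KO response minus the WT response was 0.44 ± 0.29 in CD4 cells (95% interval -0.19 to 1.07) and 0.14 ± 0.29 in CD8 cells (-0.49 to 0.77). In CD8 cells it was 1.25 ± 0.37 for Mxd4 (adjusted p = 0.281), and 1.27 without CD8 KO 18 h replicate 2. It was -1.22 ± 0.38 for Nolc1 (adjusted p = 0.314) and -0.86 ± 0.61 for Ncl, and -0.74 and 0.03 without that array. Without replicate 1 instead, Max, Ncl and Nolc1 were called (-1.28, -1.76 and -1.71). Therefore the fall of Mxd4 that was called in CD8 WT and not in CD8 KO was not shown to differ between genotypes. In CD4 cells the 9 values ran from -0.62 (Nolc1) to 0.64 (Mxd4). Nor was the KO effect called as different between CD8 and CD4 cells for any gene at 0 h (0% of all genes) or 18 h (0.0403%), with 1 and 2 genes at an unadjusted p under 0.05 and 0 and 0 by treat. Without CD8 KO 18 h replicate 1, Ncl (-1.84) and Nolc1 (-1.34) were called at 18 h.

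CD8 and CD4 cells of WT mice were also set side by side. None of the 9 genes was called at 0 h (1.28% of all genes) or at 18 h (3.28%), with 0 and 1 at an unadjusted p under 0.05 and 0 and 0 by treat. Of the 9 genes, 2 lay higher and 1 lower in CD8 arrays without overlap at 0 h, and 4 and 5 at 18 h. Over all genes 37.6% and 42.4% did not overlap. With all arrays the widest gap at 18 h was for Mxd4, 0.82 ± 0.26 higher in CD8 cells (adjusted p = 0.140), which was 1.31 and called without CD4 WT 18 h replicate 2, 0.33 (adjusted p = 0.774) without CD4 WT 18 h replicate 1 and 0.34 with the mean of all probe sets. The response of CD8 cells minus that of CD4 cells, a comparison added after the values were seen, gave 0 called genes in WT (0.371% of all genes), with 4 at an unadjusted p under 0.05 and 0 by treat. In KO cells it gave 3 (4.24%), namely Mxd4, Mxi1 and Nolc1. The uncalled WT values of these 3 genes had the same signs, and whether KO and WT differed in this was not tested.

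The other genes of the pathway were described by lists. Beside their counts stand the shares of all genes called with stimulation in CD4 WT, CD4 KO, CD8 WT and CD8 KO. Those called higher were 12.2%, 11.1%, 8.2% and 3.67%, and those called lower 14%, 13.2%, 7% and 3.87%. Of 17 measured genes of the Myc, Max and Mlx network beside the members, 4 rose and 1 fell in CD4 WT, 4 and 1 did so in CD4 KO, 3 and 2 in CD8 WT and 1 and 0 in CD8 KO. Ruvbl1 and Ruvbl2, ATPases of chromatin complexes that bind Myc, rose by 2.33 ± 0.19 and 1.62 ± 0.22 in CD4 WT, and Ruvbl1 rose by 1.12 ± 0.19 in CD8 KO. Skp2, a ubiquitin ligase subunit, rose by 1.63 ± 0.27 in CD4 WT and 1.65 ± 0.27 in CD8 WT. Mnt, another repressor that pairs with Max, fell by 0.77 ± 0.18 in CD8 WT, and Mxd1 was called in none of the 4 settings (-0.26 to 0.27). The list medians were -0.18, 0.06, -0.09 and -0.12, against -0.08, 0.02, -0.06 and 0.02 over all genes.

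Of 13 measured genes of the polyamine and hypusine pathway beside Odc1 and Srm, 4, 3, 2 and 2 rose in CD4 WT, CD4 KO, CD8 WT and CD8 KO and 0 fell. Eif5a, the translation factor that carries hypusine, rose in all 4, by 1.33, 1.36, 1.08 and 0.90 with SE 0.15. Azin1, which protects Odc1 protein from its inhibitor, rose by 1.24 in CD4 KO, 0.80 in CD8 WT and 0.61 in CD8 KO. Its mean in CD4 WT was also higher at 18 h (9.90) than at 0 h (9.08), with no test given here. The list medians were 0.03, 0.32, 0.09 and 0.14.

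Nucleolar and ribosome assembly genes moved far more widely. Of 44 measured, 37, 38, 27 and 7 rose and 0 fell, with medians of 1.41, 1.32, 0.82 and 0.34. Lyar and Nop16, nucleolar proteins, rose by 2.34 ± 0.16 and 2.54 ± 0.21 in CD4 WT, and by 1.44 and 1.27 in CD8 KO. Of 28 genes of RNA polymerases I and III and their factors, 12, 14, 7 and 2 rose and 1, 1, 0 and 0 fell, with medians of 0.48, 0.62, 0.31 and 0.18. Of 39 other growth genes known as Myc targets, 35, 33, 28 and 14 rose and 0 fell, with medians of 1.58, 1.47, 1.0 and 0.69, led in all 4 settings by Hk2, a hexokinase (4.61, 3.81, 3.03 and 2.60). Of 19 genes known to be repressed by Myc, 2, 3, 2 and 3 rose and 8, 6, 5 and 1 fell. Those that fell included Txnip, an inhibitor of thioredoxin and glucose uptake (-3.31 in CD4 WT and -1.23 in CD8 KO), and Klf2, a factor of T cell quiescence (-2.98 in CD4 WT). Cdkn1a, which encodes the cell cycle inhibitor p21, rose instead, by 1.79 ± 0.26 in CD8 WT, 3.78 ± 0.26 in CD4 KO and 3.87 ± 0.26 in CD8 KO. Its mean in CD4 WT was also higher at 18 h (7.13) than at 0 h (5.07), with no test given here.

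The counts in CD8 cells rested on few arrays. In CD8 KO the 7 ribosome assembly genes became 3 without CD8 KO 18 h replicate 2, 18 without replicate 1, and 2 or 4 without replicate 1 or 2 of CD8 KO 0 h. The 14 known targets became 6, 20, 1 and 5 in the same order, the 2 polymerase genes 0, 9, 0 and 1, the 4 repressed genes 3, 4, 1 and 2 (both directions), the 2 polyamine genes 1, 3, 1 and 1, and the network list went from 1 to 2 and 6 without the 18 h arrays. In CD8 WT the 27 ribosome assembly genes became 11 without CD8 WT 18 h replicate 2, and the 28 known targets 15 without that array and 17 or 18 without replicate 1 or 2 of CD8 WT 0 h. Without these 3 arrays the 7 polymerase genes became 1, 2 and 4 and the 7 repressed genes 3, 4 and 3, and the 5 network genes became 3 without either the 18 h array or CD8 WT 0 h replicate 1. In CD4 cells the counts moved by over 1.5 times only for polymerase genes in CD4 KO, from 15 to 9 without CD4 KO 0 h replicate 2.

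**Figure D5:**
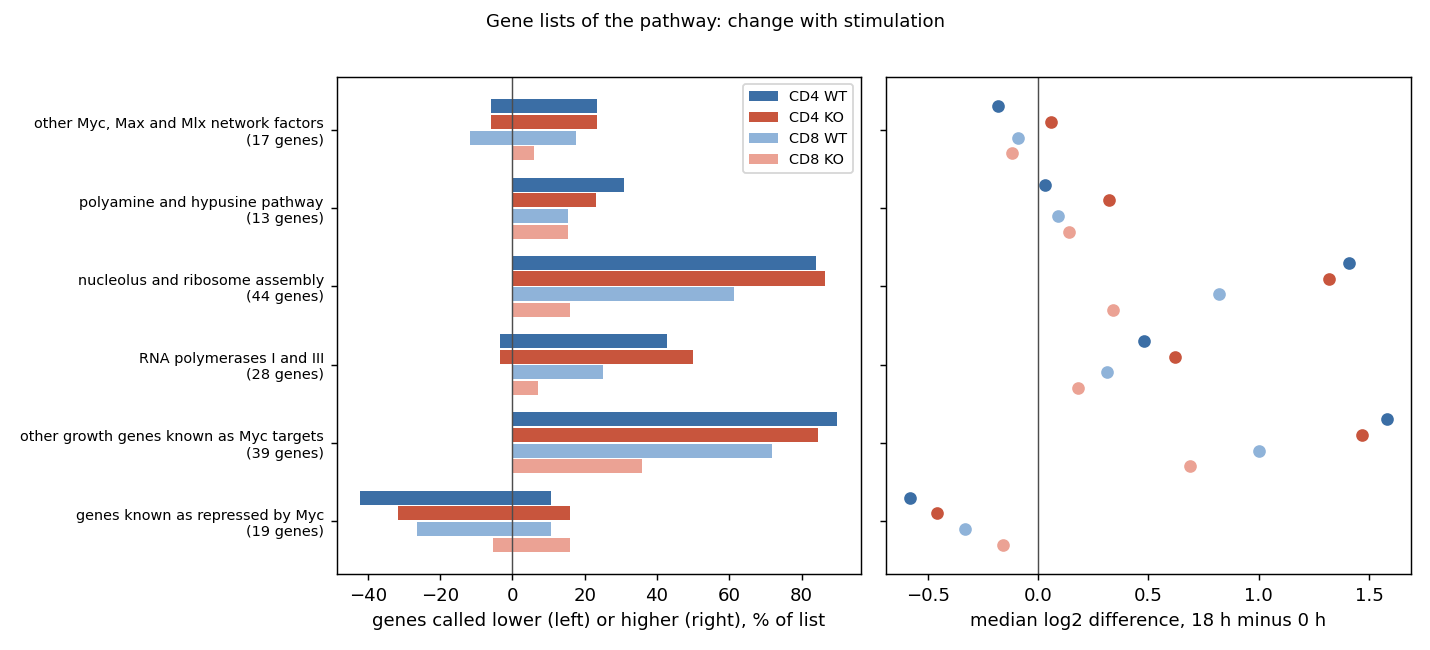
For 6 gene lists (y axis, with the number of genes measured), the left panel shows the percentage called lower (to the left of 0) or higher (to the right) at 18 h against 0 h, and the right panel the median log2 difference, by cell type and genotype. Ribosome assembly genes and known Myc targets lie farthest to the right, with 37 of 44 and 35 of 39 called higher in CD4 WT and 7 of 44 and 14 of 39 in CD8 KO.

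Between genotypes 1.27% and 1.63% of all genes were called in resting CD4 and CD8 cells, and 6.86% and 2.75% in stimulated ones. Beside these shares, the network and polyamine lists had 0 called genes in all 4 comparisons, which does not set lists of their size apart from all genes. At 18 h in CD4 cells 2 of 44 ribosome assembly genes were lower in KO (Ebna1bp2 by -0.81 and Imp3 by -0.80), and 3 of 39 known targets were called, Tpi1, a glycolytic enzyme (-1.25 ± 0.25), Umps, a pyrimidine synthesis enzyme (-0.76 ± 0.21), and Slc3a2, an amino acid transporter subunit (0.97 ± 0.19). Of the 28 polymerase genes 1 was called there, Taf1d (0.83 ± 0.23). In CD8 cells at 18 h Umps was lower in KO (-1.15 ± 0.21). Of the 19 genes known to be repressed by Myc, 4 were higher in KO among stimulated CD4 cells and 2 among stimulated CD8 cells. Cdkn1a differed by 1.96 ± 0.26 and 2.01 ± 0.26 in CD4 and CD8 cells and Ndrg1, a stress-responsive gene, by 2.46 ± 0.21 and 1.03 ± 0.21. In CD8 cells at 18 h the counts of 1 known target and 2 repressed genes were the same without CD8 KO 18 h replicate 2 and rose to 8 and 4 without replicate 1, when 7 ribosome assembly and 8 polymerase genes were called too. Without CD8 WT 18 h replicate 2 they were 0 and 1. In CD4 cells at 18 h leaving out any 1 of the 4 arrays compared gave 0 or 1 ribosome assembly gene in place of 2, 1 known target in place of 3, 2 repressed genes in place of 4 and 0 polymerase genes in place of 1.

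Genes whose 8 group means most resembled those of the members were sought among 4148 genes whose means spanned at least 1 log2 unit. For Myc they were Ppp1r14b (Pearson's r = 0.990), Rnmt (0.990) and Abcb1b (0.989), and for Odc1 Cd320 (0.995), Ndc1 (0.995) and Ybx3 (0.994). For Srm they were Eif5a (0.996), Timm9 (0.995) and Myo1c (0.995), for Nolc1 Gars (0.996), Zmynd19 (0.995) and Pprc1 (0.994), and for Ncl Adss (0.994), Exosc2 (0.994) and Ppat (0.992). For Mxd4 they were Habp4 (0.997), Ogt (0.990) and Sesn1 (0.989). Among the members, Myc and Srm followed each other with r = 0.983, Odc1 and Srm with 0.981, and Mxd4 ran against Nolc1 with -0.979. These values describe 8 means that share the same arrays and the same split between 0 h and 18 h.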

How the data were processed

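Affymetrix mouse arrays were hybridized with biotinylated cRNA after 2 rounds of amplification of RNA from sorted T cells, in 8 groups of 2 replicates taken from the labels. The authors deposited log2 probe set values that they had made with the R packages affy and limma, per the labels (versions not given). The table held 22690 probe sets, 64 of them controls, with array medians of 5.24 to 5.43, and was not normalized again. If they were normalized between arrays, which the sources do not state, a shift of all transcripts together is not visible. With no read depth in arrays, it is their number that limits precision. Of the probe sets 20380 named 1 gene, 691 several and 1555 none, by the platform's annotation with symbols updated through RefSeq gene IDs (20351 matched). Promoters came from RefSeq (GRCm38.p6).

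Differences were fitted in limma 3.58.1 (R 4.3.3) as means of 8 groups, with 8 residual and 4.32 prior degrees of freedom. The two-sided test against 0 was adjusted over 12393 genes (Benjamini-Hochberg), and a call needed an adjusted p under 0.05 and a fold over 1.5. The 9 genes, the gene lists and the tests were chosen with earlier results of these data known. Named were the 9 genes with all probe sets, any gene of the network list, up to 3 called genes of each other list by fold, and the 3 genes most like each of 6 members. The same fit was tested on simulated data of 12393 genes with 200 changed. In CD8 cells at 18 h a log2 KO difference of 1 was recovered for 58% and of 2 for 91%, and a response difference of 1 in CD8 cells for 28%. The simulation gave each gene the same spread in all groups. The replicates of CD8 KO 18 h correlated at 0.970, against 0.987 to 0.994 in the other groups, and these recoveries leave that out.

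Because the 0 h and 18 h cells came from split sorts, the pairing of replicate numbers was checked. Across genes, the difference of replicate 2 and replicate 1 correlated at 0.27 to 0.56 between times of 1 lineage and genotype, at 0.18 to 0.45 between other groups of a lineage and at -0.60 to -0.12 between lineages, and so a block within lineage was run as an alternative. The split sorts themselves tie only the times of 1 genotype. Others were another test (treat), scaling, a filter on dim genes, other choices of probe set and arrays left out.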

Additional observations from a re-analysis of the deposited data

Results flagged for a closer look

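The response of CD8 KO cells minus that of CD4 KO cells was compared after the values had been seen, and limma called 3 of the 9 genes (4.24% of all genes). Mxd4 fell in CD4 KO cells and was not called in CD8 KO cells, a difference of 1.49 ± 0.37 (adjusted p = 0.0407). Mxi1 fell in CD4 KO and rose in CD8 KO cells, a difference of 1.40 ± 0.25 (adjusted p = 0.00948). Nolc1 rose in CD4 KO cells and was not called in CD8 KO cells, a difference of -1.66 ± 0.38 (adjusted p = 0.0288). In WT cells the same comparison gave uncalled values of like sign, 0.88 ± 0.37 for Mxd4, 0.52 ± 0.25 for Mxi1 and -1.06 ± 0.38 for Nolc1. Whether KO and WT differed in this was not tested. In KO cells, with the mean of all probe sets, the Mxd4 difference was 0.69 (adjusted p = 0.331), that of Nolc1 was not called (adjusted p = 0.176) and that of Mxi1 was 0.92 and called. For KO cells treat called none of the 3. The Mxi1 call was made in 15 of 16 fits without 1 array, being lost without CD4 KO 18 h replicate 2 (1.20), that of Nolc1 in 11 and that of Mxd4 in 5. Nolc1 was not called without any of the 4 CD4 KO arrays or CD8 KO 0 h replicate 1 (-1.74 to -1.46). Mxd4 was called only without 1 of CD4 WT 18 h replicates 1 and 2, CD8 WT 18 h replicates 1 and 2 and CD8 KO 18 h replicate 1, with values of 1.34 to 1.63 in the fits where it was lost. Without CD8 KO 18 h replicate 2, the array with the 3' to 5' difference of 3.76, the differences were 1.5 (adjusted p = 0.0727), 1.49 (adjusted p = 0.0137) and -1.18 (adjusted p = 0.0442), and its part in them beyond this was not tested.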

How the results depend on the processing

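Of the differences of the 9 genes under all alternatives, 3391 kept their side of the threshold within the spread of the arrays, 130 moved without a call, 36 gained a call and 61 lost one, and 0 called values changed direction. Against a fold of 1.5 (treat), members called with stimulation numbered 3 in CD8 WT and 1 in CD8 KO, and 0 for the CD8 response minus the CD4 response in KO. The genes lost were Myc, Max and Mxd4 in CD8 WT, Myc, Mxi1 and Srm in CD8 KO, Ncl in both CD4 groups and Mxi1 in CD4 KO. The mean of all probe sets lost Nolc1 in CD8 WT (1.25) and Mxi1 in CD4 KO (-0.42) and CD8 KO (0.50), and a fit of CD8 arrays alone lost Max in CD8 WT and Mxi1 in CD8 KO. For KO minus WT in CD8 cells at 0 h, 1 member was called with dim genes left out and 1 with the mean of all probe sets (Mxd3 both times), and 2 with the replicate block within lineage. That block gave 1 for KO minus WT in CD8 cells at 18 h and changed no other count by over 1.5 times. The dim filter kept genes whose highest group mean passed 5.37, which Mxd3 did in CD8 KO cells (5.99 at 0 h), so its call there lends no support. With the mean of all probe sets 1 member was called for the response of CD8 KO minus CD4 KO, and with each sort as a block, the replicate number pairing 0 h and 18 h, 5 were (Myc and Srm beside the other 3).

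With each array left out in turn, members called ranged as follows. For stimulation they were 5 to 6 in CD4 WT, 5 to 7 in CD4 KO, 4 to 7 in CD8 WT and 3 to 4 in CD8 KO. For KO minus WT they were 0 to 0 in CD4 cells at both times, 0 to 1 in CD8 cells at 0 h and 0 to 3 at 18 h. For the response difference they were 0 to 0 in CD4 and 0 to 3 in CD8 cells, and for the KO effect of CD8 minus CD4 0 to 0 at 0 h and 0 to 2 at 18 h. For CD8 minus CD4 in WT they were 0 to 0 and 0 to 1, and for the response of CD8 minus CD4 0 to 0 in WT and 0 to 4 in KO. With each probe set on its own, Ncl was called higher with stimulation in CD8 WT (1.45) and CD8 KO (1.41). With 2 arrays a group, differences of about 1 log2 unit can be missed, and signal near background limits Mxd3.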
